A study of Homo sapiens with 6 samples.

Results

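The regions described here are the peaks of the UHRF1 tandem Tudor domain (TTD) on chromosome 19 in HepG2 cells, a human hepatoblastoma line grown without treatment. They were chosen by a single criterion, a chromosome entry of chr19 in the deposited list of broad TTD peaks, which gave 350 of 31569 peaks (1.11%). In the study, mononucleosomes released from native HepG2 chromatin with micrococcal nuclease were captured with a GST-tagged TTD (residues 126 to 280 of human UHRF1) in place of an antibody, a method named chromatin interacting domain precipitation (CIDOP), and were sequenced. The 6 libraries fall into 3 groups of 2 biological replicates, TTD CIDOP, H3K9me2 ChIP and input, and the peak list was made from the averaged signal of both TTD CIDOP replicates. The list holds the position and width of each peak and no height, so no peak has a value per replicate, and the intervals given below cover counting error only. The read depth behind a peak is unknown for the same reason. The reagent was an isolated domain added to chromatin fragments, not UHRF1 in the cell. HepG2 is 1 tumour line that carries extra copies of several chromosomes, among them 17 and 20. Copy number was not measured here, so densities of peaks per base of the reference and the number of copies of a chromosome cannot be told apart.

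UHRF1 is a multi-domain nuclear protein that recruits the maintenance methyltransferase DNMT1 to newly replicated DNA. Its TTD reads the tail of histone H3, where it binds methylated lysine 9, a mark of repressed chromatin, and the study examined this binding together with methylation of lysine 4, in its monomethylated form a mark of enhancers. Chromosome 19 has the most genes per base of the human chromosomes, is rich in GC and CpG islands, and carries many gene families in tandem arrays, of which the KRAB zinc finger family is the largest. Zinc finger genes are treated below as 1 class.

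The central 300 bases of 2 peaks are shown first, because these peaks are the narrowest and the poorest in CpG, for peaks of at least 1 kb, of the chromosome. Positions are in hg38, the plus strand is given from 5′ to 3′, and capitals mark CpG dinucleotides, the targets of DNA methylation. The narrowest peak (310 bp) lay in an intron of FCGBP, and its centre, at chr19:39897996-39898295, had 4 CpGs. The ratio of observed CpGs to those expected from the number of C and G was lowest (0.0615) in an intergenic peak, whose centre at chr19:34745601-34745900 had 2 CpGs.
Narrowest peak: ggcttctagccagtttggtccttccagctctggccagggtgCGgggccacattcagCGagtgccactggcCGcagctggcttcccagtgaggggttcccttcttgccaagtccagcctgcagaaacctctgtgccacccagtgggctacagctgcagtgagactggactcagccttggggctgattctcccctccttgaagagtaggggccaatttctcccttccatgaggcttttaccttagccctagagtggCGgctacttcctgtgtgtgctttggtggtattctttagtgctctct
Lowest CpG ratio: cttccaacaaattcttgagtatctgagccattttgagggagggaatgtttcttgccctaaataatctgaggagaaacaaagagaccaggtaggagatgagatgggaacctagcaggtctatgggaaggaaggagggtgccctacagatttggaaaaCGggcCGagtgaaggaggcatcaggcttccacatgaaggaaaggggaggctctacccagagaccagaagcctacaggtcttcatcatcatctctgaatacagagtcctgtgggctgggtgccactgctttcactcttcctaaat

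Chromosome 19 is 58.6 Mb long and carried 5.97 peaks per Mb (95% Poisson interval 5.36 to 6.63). The chromosome was chosen for this low number, so the value is a description. Chromosome 21, just outside the rule, had 6.06 peaks per Mb, chromosome 20 had the most at 22.8, and the median of the other 21 autosomes was 9.22. Counted without N bases the values were 5.99 for chromosome 19 and 7.06 for chromosome 21. The order of these neighbours was not stable, since with peaks closer than 1 kb joined into 1 chromosome 19 had 5.78 per Mb and chromosome 21 had 5.69. Peaks covered 1.26% of chromosome 19, against 1.62% to 7.04% of the other autosomes. The number of protein-coding genes went the other way, with 1476 genes or 25.2 per Mb on chromosome 19, and 14.2 per Mb on chromosome 17, the next in order. The chromosome thus held 2.04% of the autosomal length, 7.72% of the autosomal protein-coding genes and 1.12% of the autosomal peaks, or 0.237 peaks per gene, where the next lowest chromosome, 22, had 0.808.

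**Figure D1:**
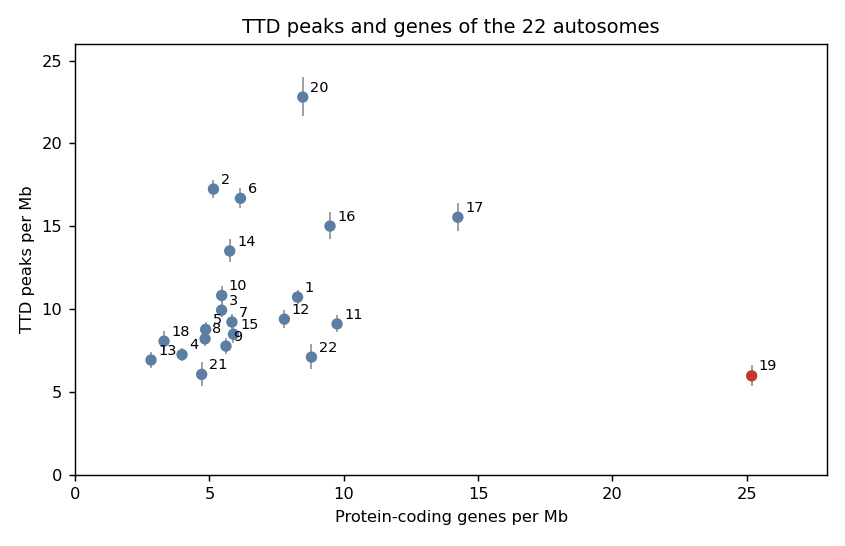
Each point is an autosome, with protein-coding genes per Mb on the horizontal axis, TTD peaks per Mb on the vertical axis and bars for the 95% Poisson interval of the peak count. Chromosome 19 (red) stands alone at 25.2 genes per Mb and lies at the lower edge with 5.97 peaks per Mb, beside chromosome 21 with 6.06.

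Within the chromosome the peaks were spread unevenly. Of the 59 bins of 1 Mb, 3 held no peak centre, 34 held 1 to 5 peaks, 13 held 6 to 10 and 9 held more than 10. The median bin had 4 peaks (quartiles 2 and 8), the fullest had 24, and the variance of the bin counts was 5.46 times their mean. Empty bins were not more frequent than elsewhere. Of the 55 full-length bins without N bases 5.45% were empty, compared with 8.28% of the 2501 such bins of the other autosomes. The empty bins were those from 3 to 4 Mb, with 29 protein-coding genes, and from 25 to 27 Mb, in the longest peak-free stretch around the centromere, with none.

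The 5 bins with the most peaks held 103 peaks, 29.4% of the total in 8.53% of the length. The bin from 57 to 58 Mb had 24 peaks and 47 genes, 31 of them zinc finger genes. The bin from 44 to 45 Mb had 23 peaks, and the bin from 56 to 57 Mb had 20. The latter was the most covered, with 7.41% of its bases in peaks. The bins from 34 to 35 Mb and from 39 to 40 Mb each had 18 peaks. These bins differed in their surroundings. The nearest gene belonged to the zinc finger family for 17 of 24 peaks in the bin from 57 to 58 Mb and for 0 of 18 in the bin from 39 to 40 Mb, where FCGBP lies. Without these 5 bins the chromosome had 4.61 peaks per Mb and a cover of 0.916%.

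**Figure D2:**
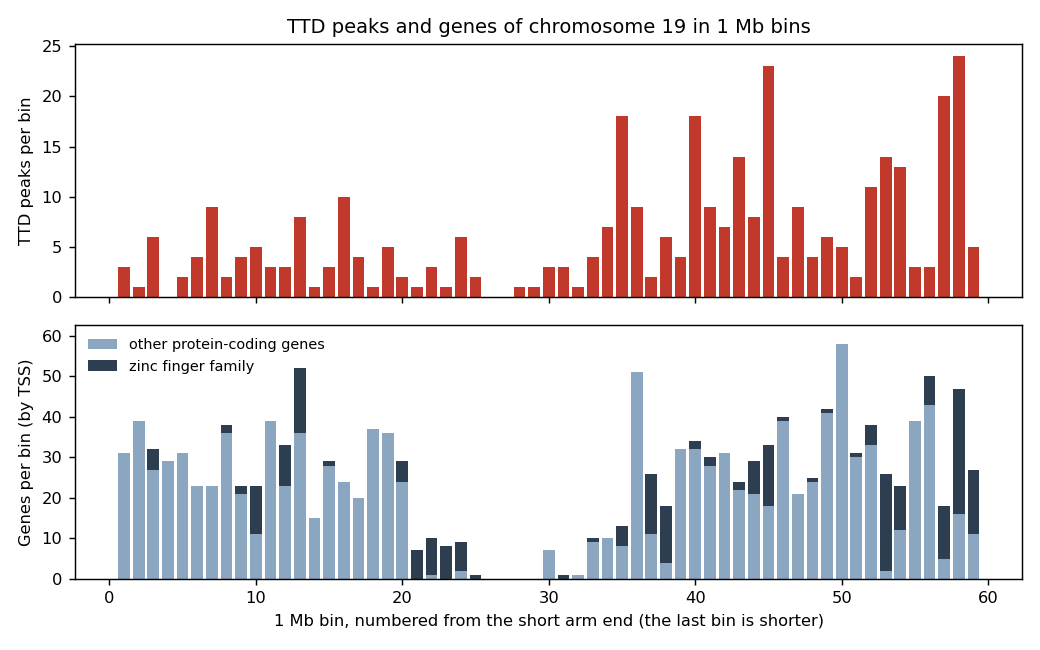
The upper bars give the number of TTD peaks, by peak centre, in each 1 Mb bin of chromosome 19, numbered from the end of the short arm, and the lower bars give protein-coding genes by TSS, split into the zinc finger family (dark) and all others (light). The tallest peak bars, 24 and 23, lie in the bins from 57 to 58 Mb and from 44 to 45 Mb, and bins with few peaks include several with over 30 genes.

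The longest stretch without a peak ran from 24142091 to 27812770, 3.67 Mb around the centromere with no protein-coding TSS. On its short-arm side lay 89 peaks, 3.69 per Mb (2.96 to 4.54), and on its long-arm side 261 peaks, 8.47 per Mb (7.48 to 9.57). The gene densities of these sides were nearly equal, 26.6 and 27.1 genes per Mb, whereas zinc finger genes numbered 85 and 176. Peaks were also narrower on the short-arm side, with a median of 1440 bp against 1790 bp, and the cover was 0.606% against 1.92%. The intervals of these densities did not overlap, but they assume independent peaks. With a bin variance 5.46 times the mean they understate the spread, and the 5 fullest bins all lay on the long-arm side.

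Long peak-free stretches also occurred in gene-dense DNA. The stretch from 606091 to 1935060 (1.33 Mb, 59.2% GC) held the TSSs of 56 protein-coding genes, among them ELANE, which codes for neutrophil elastase, the tumour suppressor kinase STK11 and the lipid peroxidase GPX4. The stretch from 2865301 to 4246050 (1.38 Mb) held 40, including the translation elongation factor EEF2. The stretch from 13033671 to 14419580 (1.39 Mb) held 28, including PRKACA, the catalytic subunit of protein kinase A. In all, 25 peak-free stretches of 500 kb or more took up 24.2 Mb, 41.4% of the chromosome. The corresponding shares were 22.8% on chromosome 17, 10.4% on chromosome 20 and 46.1% on chromosome 22. Without N bases, which fill much of the short arm of chromosome 22, they were 41.3% on chromosome 19, 22.7% on chromosome 17, 10.1% on chromosome 20 and 30.5% on chromosome 22.

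Bins of like gene number were set side by side as a description, since fewer peaks in the bins of chromosome 19 also follow from its choice. Bins with 20 to 29 genes had on average 6.56 peaks on chromosome 19 (16 bins) and 14.8 on the other autosomes (102 bins), and bins with 30 to 39 genes had 6.25 (16 bins) and 14.3 (40 bins). In bins with fewer than 10 genes the means were 1.78 (9 bins, 2 of them the empty bins at the centromere) and 10.7. A like difference was seen by base composition. Bins of 45% to 50% GC averaged 8.19 peaks on chromosome 19 and 15.2 elsewhere, and bins of 50% to 55% GC averaged 3.82 and 9.49. Across the 2501 other bins the number of genes and the number of peaks had a Spearman correlation of 0.541, and across the 55 bins of chromosome 19 it was 0.244. Within other single chromosomes it was 0.150 (chromosome 17), 0.375 (chromosome 20) and 0.0014 (chromosome 22), so a weak relation was not particular to chromosome 19. Neighbouring bins share chromatin and come from the same pooled signal, so these coefficients are descriptions.

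**Figure D3:**
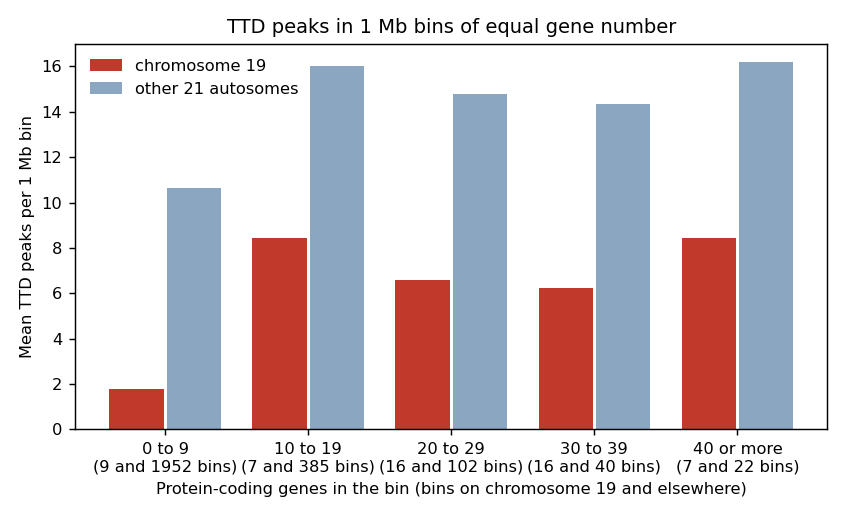
Bars give the mean number of TTD peaks per 1 Mb bin for bins grouped by their number of protein-coding genes, on chromosome 19 (red) and on the other 21 autosomes (blue), with the number of bins under each pair and no error bars. The red bar is the lower of the pair in each class, for example 8.43 against 16.2 peaks in bins with 40 or more genes.

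Bins with several zinc finger genes held more peaks on average. The 20 bins with at least 5 zinc finger genes averaged 8.85 peaks (range 1 to 24) and a cover of 1.97%. The other 35 averaged 4.63 peaks (range 0 to 18) and 0.905%, at nearly the same number of genes (26.2 and 25.5 per bin). The bins with zinc finger genes had a lower mean GC content, 45.6% against 49.5%. The medians were 6 peaks in the bins with zinc finger genes and 4 in the others. The 2 ranges overlapped over most of their length, and the part of GC content in the difference was not tested.

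Most peaks stood alone. With peaks less than 10 kb apart taken as 1 run, 242 of 350 peaks (69.1%) had no neighbour and 11 runs held 3 or more peaks. The median gap between neighbouring peaks was 61110 bp, longer than on the other autosomes (13685 to 44680 bp). The runs with the most peaks, 6 each, lay at CXCL17, a mucosal chemokine gene, and inside FCGBP, which codes for a mucus protein that binds the Fc part of IgG. At CXCL17 the run spanned 42432451 to 42473210 and 55.6% of its bases were in peaks, of which 2 overlapped the gene and the others lay upstream of it. In FCGBP it spanned 39879621 to 39905710 with 58.9%. A further accumulation began at MIMT1, a noncoding gene of an imprinted domain. From 56843011 to 56981720 lay 14 peaks, 4.0% of all peaks of the chromosome, in 138.71 kb with no protein-coding TSS. They covered 42.4% of that span and made up 7.98% of all bases in peaks on chromosome 19.

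The peaks of chromosome 19 were narrow. Their widths ran from 310 to 11420 bp, with a median of 1655 bp and quartiles of 1010 and 2770 bp. On the other autosomes the medians lay between 1860 bp (chromosome 22) and 2460 bp, and the pooled median was 2260 bp. Peaks under 1 kb made up 24.3% of the peaks on chromosome 19 (85 peaks) and 13.5% elsewhere. Peaks of at least 5 kb made up 4.29% (15 peaks) and 13.8%. On chromosome 22 alone the shares were 21.3% under 1 kb and 7.48% of at least 5 kb. Among the widest were a peak of 9950 bp in an intron of the secretoglobin gene SCGB2B2 and a peak of 6340 bp over the TSS of SLC27A5. A peak of 9770 bp lay in the annotated span of IGFL4, of the insulin growth factor-like family, 23839 bp upstream of the TSS used here. Of the 15 peaks of at least 5 kb, 6 lay in the bin from 56 to 57 Mb and 9 were intergenic. The study's methods state that large false-positive peaks were removed by hand, and their number per chromosome is unknown.

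**Figure D4:**
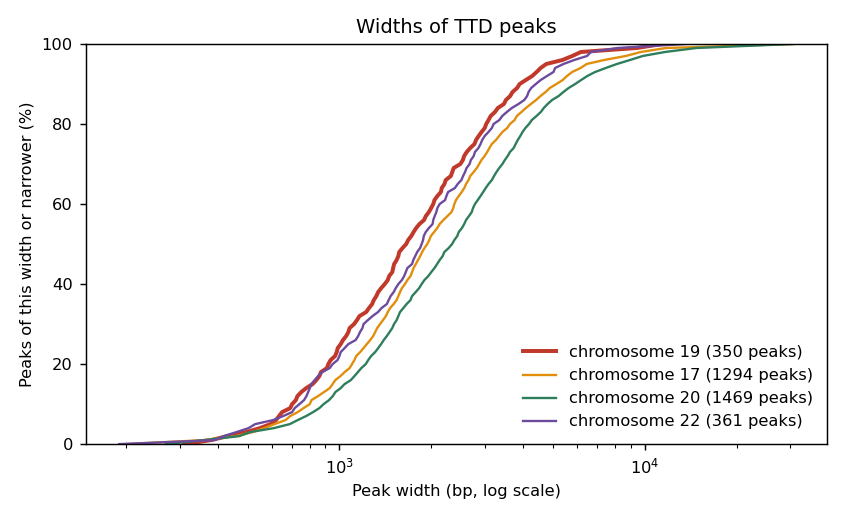
Curves give the percentage of TTD peaks at or below each width (bp, log scale) on chromosomes 19, 17, 20 and 22. The curve of chromosome 19 (red) lies left of the others over its middle part, with a median of 1655 bp against 1860 bp on chromosome 22, 1940 bp on chromosome 17 and 2340 bp on chromosome 20.

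Relative to genes, peaks of chromosome 19 lay closer to TSSs than peaks elsewhere, on a chromosome whose bases lie closer to TSSs. The distance from the peak centre to the nearest protein-coding TSS was under 1 kb for 46 peaks (13.1%, Wilson 95% interval 10.0 to 17.1), against 2.41% of the peaks of the other autosomes and 4.65% of the bases of chromosome 19. It was 1 to 10 kb for 154 peaks (44%, bases 33.2%), 10 to 100 kb for 138 (39.4%, bases 48.7%) and 100 kb or more for 12 (3.43%, bases 13.5%). The share within 1 kb was 2.82 times the share of bases, and on the other autosomes this ratio was 1.98. In the classes further out the ratio was lower on chromosome 19 than on the other autosomes. It was 1.33 against 1.74 at 1 to 10 kb, 0.810 against 1.27 at 10 to 100 kb and 0.254 against 0.591 beyond. Among peaks at least as wide as the median of the whole list the share within 1 kb was 5.04%, close to the share of bases. In peaks per Mb the 4 classes had 16.9, 7.94, 4.85 and 1.52 on chromosome 19 and 22.6, 19.9, 14.5 and 6.75 on the other autosomes. Distance measured from the peak edge placed 26.9% of the peaks within 1 kb.

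The peaks within 1 kb were narrow, with a median of 940 bp, and sat mostly upstream. Of these 46 peaks, 37 had their centre upstream of the TSS and 9 downstream, an upstream share of 80.4% (66.8 to 89.3), similar to the 78% of the other autosomes. Of the 46, 9 contained a TSS (19.6%, against 34.0% elsewhere). Over the whole chromosome 11 peaks (3.14%, 1.76 to 5.54) contained a protein-coding TSS, against 1.31% elsewhere. The nearest gene of 23 of the 46 was a zinc finger gene. For all 350 peaks this number was 123 (35.1%), while zinc finger genes made up 17.7% of the protein-coding genes. The class holds symbols that begin with ZNF, ZFP or ZSCAN, and zinc finger genes with other symbols, some of them near the MIMT1 peaks, were counted outside it.

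The cover around TSSs differed between gene classes. At the TSSs of the 1215 genes outside the zinc finger family, 0.494% of positions lay in a peak, and the highest cover upstream was 2.14%, 600 bp from the TSS. For the 17351 such genes of the other autosomes the values were 2.38% and 8.31%, the latter 1100 bp upstream. For the 261 zinc finger genes of chromosome 19 they were 1.92% and 13.8%, 800 bp upstream. The 284 zinc finger genes elsewhere had 2.82% and 15.8% at the same distance. The lower cover of chromosome 19 also follows from its choice for few peaks, and these values are a description. For zinc finger genes the upstream maxima lay near each other, but 2 kb upstream the cover was 4.98% on chromosome 19 and 8.10% elsewhere. Downstream of zinc finger genes the order was the other way. The maxima, both 1500 bp from the TSS, were 13.0% on chromosome 19 and 9.15% elsewhere, and 2 kb downstream the cover was 11.1% and 8.80%. All 4 curves had a dip at or just downstream of the TSS.

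**Figure D5:**
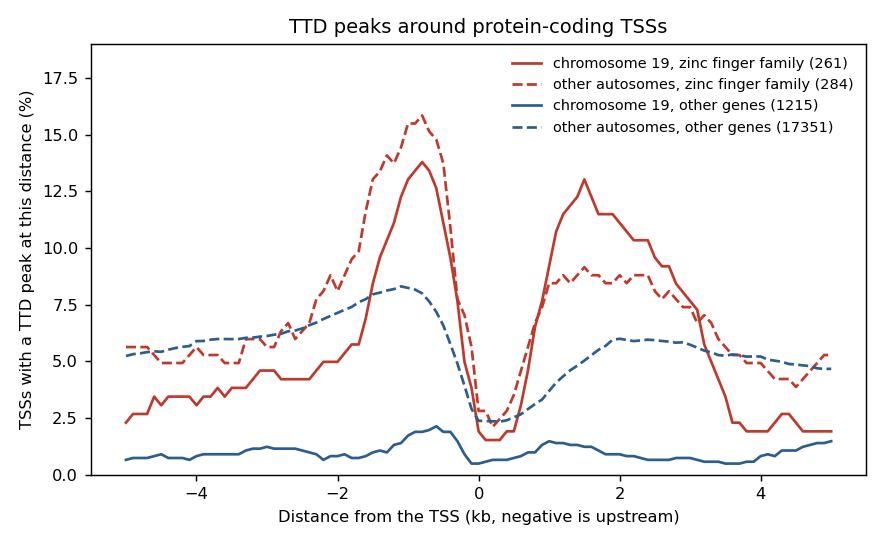
Lines give the percentage of protein-coding TSSs with a TTD peak at each distance up to 5 kb upstream (negative) and downstream, for zinc finger genes (red) and other genes (blue) of chromosome 19 (solid) and of the other autosomes (dashed), with the number of genes in the key. The solid blue line stays at or below 2.14%, whereas the dashed blue line reaches 8.31% and the red lines reach 13.8% and 15.8%.

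By the annotation at their centre, 21 peaks (6.0%, 3.96 to 9.0) lay in exons of protein-coding genes, 162 (46.3%) in introns and 167 (47.7%) between genes. The bases of the chromosome divide into 8.19%, 48.9% and 42.9%. On the other autosomes the shares of peaks were 2.5%, 48.7% and 48.8%. The share of exonic bases lay within the interval of the exonic peaks, and exonic DNA had 4.39 peaks per Mb on chromosome 19 and 10.3 elsewhere. Any overlap with an exon was found for 83 peaks (23.7%, against 12.9% elsewhere) and with coding sequence for 54 (15.4%, against 9.69%). Gene ends lay in 12 peaks (3.43%, 1.97 to 5.90, against 1.82%). That interval included the shares of chromosomes 17 (3.94%), 20 (2.18%) and 22 (2.22%), so the gene-end share was not particular to chromosome 19. For coding sequence the interval was 12.0 to 19.6, which included chromosome 17 (14.1%) but not chromosome 20 (10.96%) or 22 (9.14%). For any exon overlap the interval was 19.6 to 28.4, and chromosomes 17, 20 and 22 all lay below it. The TSS of a long noncoding RNA lay in 10 peaks of chromosome 19 (2.86%, 1.56 to 5.18), an interval that included the 2.67% elsewhere. No protein-coding gene was touched by 150 peaks (42.9%, 37.8 to 48.1), and the 47.2% elsewhere lay within that interval.

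Few genes of chromosome 19 were touched. A peak overlapped the body of 185 of the 1476 protein-coding genes (12.5%), against 37.3% of the 17635 genes of the other autosomes. The next lowest shares were 21.3% on chromosome 22 and 25.7% on chromosome 11. Genes of chromosome 19 are short, with the lowest median length of the autosomes (15899 bp), and the chromosome was chosen for few peaks, so shares by gene length are given as a description. The share was 6.88% against 17.1% for genes of 5 to 20 kb, 16.4% against 33.8% for 20 to 50 kb and 39.5% against 75.8% for genes over 100 kb. In the zinc finger family 66 of 261 genes (25.3%, 20.4 to 30.9) were overlapped, and in all other genes 119 of 1215 (9.79%). The zinc finger genes were longer, with a median of 25706 bp against 13764 bp, and the part of gene length in this difference was not tested.

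Among the genes outside that family, FCGBP had the most bases in peaks, with 15380 bp in 6 peaks, 21.6% of its length. SCGB2B2 had 13440 bp and ARHGAP35 had 11240 bp. IGFL4 followed with 9770 bp, all in a single peak upstream of the TSS used, and GNG7, a gamma subunit of G proteins, with 7390 bp. CXCL17 had 5336 bp, 36.4% of its length, with the TSS inside a peak. Of the 10 genes outside the family with the most covered bases, 2 carried no symbol in the annotation.

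Among 41 genes listed for liver functions, 9 (22%, 12.0 to 36.7) were overlapped, an interval that includes the 12.5% of all genes of the chromosome. The list took in the CYP2 and CYP4F families of the chromosome whole, and expression of its members in liver was not checked. The cytochrome P450 family 4F, whose enzymes hydroxylate fatty acids and leukotrienes, had 4 of 6 genes overlapped, CYP4F12 (4970 bp), CYP4F3 (4400 bp), CYP4F2 (2017 bp) and CYP4F22 (1550 bp). SLC27A5, a bile acid and fatty acid CoA ligase, had 4813 bp. NR1H2, the oxysterol receptor LXR beta, had 3490 bp, in a peak within its annotated span but 25857 bp upstream of the TSS used here. ANGPTL4 (1240 bp) and ANGPTL8 (620 bp) code for inhibitors of lipoprotein lipase, and the insulin receptor gene INSR had 650 bp in a gene of 182160 bp. The peak at ANGPTL8 lay 359 bp upstream of the TSS used. The TSS lay in a peak for SLC27A5 and CYP4F2 only among the 41. Within 100 kb of their TSS 36 of the 41 genes (87.8%) had a peak, against 58.9% of all genes of the chromosome and 78.2% of the zinc finger family. Many of the 41 are neighbours that can share a peak, among them 6 CYP4F and 6 CYP2 genes and the APOE cluster. They are not independent, so the interval given for the overlapped genes is too narrow.

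Other tandem families held few genes, and the intervals of their shares overlapped. In the CEACAM cell adhesion family 3 of 12 genes (8.89 to 53.2%) and in the galectins 2 of 6 (9.68 to 70.0%) were overlapped. Both intervals include the 12.5% of all genes of the chromosome. No gene was overlapped in 8 families of 6 to 20 genes each, the killer cell immunoglobulin-like receptors, leukocyte immunoglobulin-like receptors, Siglecs, kallikreins, pregnancy-specific glycoproteins, olfactory receptors, chorionic gonadotropin beta genes and the cytochrome P450 family 2. They are listed together because none had an overlap, so their joint count, 0 of 86 genes (upper limit 4.28%, median length 9129.5 bp), was fixed by that choice. For the largest of these families, the olfactory receptors, the interval of 0 of 20 genes reached 16.1% and so included the 12.5% of all genes. Among 13 ribosomal protein genes 0 were overlapped, with an interval up to 22.8%, and these genes are short (median 5548 bp). UHRF1 itself and DNMT1, which both lie on chromosome 19, had no peak, and their TSSs were 255150 and 191003 bp from the nearest.

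The GC content of the peaks was close to that of the chromosome. Median GC content was 47.6% in peaks and 47.7% in 1 kb windows of chromosome 19, a difference of -0.10 percentage points. On each of the other autosomes peaks were richer in GC than windows, by 0.27 to 4.85 points. The median ratio of observed to expected CpG was 0.246 in the peaks, the highest median of the autosomes (others 0.178 to 0.225), and 0.282 in the windows. A ratio of at least 0.6, as in CpG islands, was found in 5 peaks (1.43%) and in 4.2% of the windows. The peaks near TSSs differed from the rest in this respect, with a median ratio of 0.367 within 1 kb and 0.226 at 10 to 100 kb.

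Short motifs of the liver factors HNF4A, FOXA and C/EBP and of the broadly expressed AP-1 were counted on both strands in the central 300 bases of each peak and in all 300-base windows of the chromosome. The HNF4A motif CAAAGTCCA occurred in 7 peaks (2.0%, 0.972 to 4.07) and in 0.330% of the windows, a ratio of 6.07, against 3.98 on chromosome 17, 5.00 on chromosome 20 and 3.45 on chromosome 22. The FOXA motif TGTTTAC occurred in 15 peaks (4.29%, windows 2.97%), the C/EBP motif TTGCNNAA in 46 (13.1%, windows 11.1%) and the AP-1 motif TGANTCA in 34 (9.71%, windows 7.46%). For FOXA, C/EBP and AP-1 the share of windows lay within the interval of the peaks, and for HNF4A it lay below it. A match of letters is no evidence of binding. To show these matches, 3 of the 7 HNF4A sites are given with 20 bases on each side, in the direction of the motif, which is in capitals. They lay in a peak 10991 bp upstream of the TSS of CYP2B6, a drug-metabolising cytochrome P450 (chr19:40980388-40980436, plus strand), in a peak at ERICH4 (chr19:41443009-41443057, minus strand) and in an intron of KCTD15 (chr19:33804447-33804495, minus strand).
CYP2B6 site: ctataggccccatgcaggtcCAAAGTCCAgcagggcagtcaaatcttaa
ERICH4 site: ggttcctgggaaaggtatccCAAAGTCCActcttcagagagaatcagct
KCTD15 site: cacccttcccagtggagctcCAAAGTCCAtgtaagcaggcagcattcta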

How the data were processed

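CIDOP with the GST-tagged TTD, H3K9me2 ChIP and input sequencing were done on HepG2 mononucleosomes in 2 biological replicates each. Per the submitters' processing notes, FastQC 0.72, Trimmomatic 0.38, HISAT2 2.2.1, deepTools 3.3.2 and MACS2 2.1.1 were used, with hg38. The authors averaged the RPKM signal (10 bp bins) of the TTD replicates, called broad peaks on it with MACS2, removed blacklisted regions and removed artifacts by hand. No input track is named for that step. The deposited list gives chromosome, start, end and width of each peak in bp and no other value, such as a score or fold enrichment. All peak edges lay on multiples of 10 bp.

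Peaks were compared with GENCODE 44 in Python 3.11.15 (numpy 2.4.6, pandas 2.3.3, scipy 1.17.1). Peaks were assigned by their centre to 1 Mb bins, to exon, intron or intergenic DNA, and to the nearest TSS (the Ensembl canonical transcript of each protein-coding gene). The body of a gene is its whole annotated span, which can begin upstream of that TSS. Gene names are given for the 10 genes with the most covered bases, the liver list and tandem families; MIMT1, genes of the peak-free stretches and of the motif sites were named after their values were seen. Zinc finger genes were taken by symbol and not named singly. Shares have Wilson and counts exact Poisson 95% intervals. No test was run, because the list has no replicate values and the chromosome was chosen for its peak number. The interval functions were tested on simulated data. The members and lists were chosen with earlier results of these data known. Alternatives changed the peak width, joining, bins, TSS set and distance measure. Some items are not reported here.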

Additional observations from a re-analysis of the deposited data

How the results depend on the processing

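The list was pooled, so no replicate could be left out and no paired analysis was possible because the results come from no test. Of 40 values recomputed, 20 stayed within a tolerance (the 95% interval computed for each value, or a factor of 1.5 for empty bins) and 20 did not. The correlation of genes and peaks kept its sign, and the other results cannot be negative. The intervals of the cover and of the peak-free share treat each base as independent and are therefore narrow. Restricted to the wider peaks, from the median width of the list upwards, chromosome 19 had 2.03 peaks per Mb, a cover of 0.763%, 21 empty bins, 37.8% of peaks in the fullest 5 bins, 5.04% of peaks within 1 kb of a TSS and a median GC content of 45.6%. Without N bases the cover was 1.26% and, in a setting added after seeing the data, 41.3% of the chromosome lay in peak-free stretches of at least 500 kb. In peaks per Mb chromosome 19 was lowest under these settings and was second after chromosome 21 with peaks under 1 kb apart joined; in cover it was lowest under both settings run.

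From the peak edge, 26.9% of peaks lay within 1 kb of a TSS and 32.0% at 1 to 10 kb. With TSSs of genes of any type the shares by distance were 17.1%, 58.6%, 24.3% and 0%, and with genes of any type 10.6% of peaks were exonic, 54.9% intronic and 34.6% intergenic. In the central 300 bases the median GC content was 48.3%. A peak lay within 2.5 kb of the TSS for 8.20% of genes (8.28% on chromosome 22), and without the zinc finger family 9.79% of genes were overlapped. Over all 59 bins the Spearman correlation of genes and peaks was 0.286, and 0.207 without the fullest bin and bins with N bases. Peak heights, read depth, input signal and copy number were not analysed here.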
